A study of Homo sapiens with 208 samples.

Results

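The 10 genes described here are AXIN2, NKD1, NKD2, RNF43, ZNRF3, LGR5, NOTUM, SP5, APCDD1 and TNFRSF19, which β-catenin is known to induce and most of which restrain or tune Wnt signaling. They were taken as all array probes whose RefSeq accession belongs to one of these genes. All 10 genes had a probe, among 16961 genes with a probe, and together they had 16 probes. The group was chosen by a measured value, the higher AXIN2 level with gefitinib in both cell lines of these arrays, so the differences of AXIN2 between courses with gefitinib and matched courses without it are given without a test. Those of the other members are tested for whether they moved with it, and AXIN2 is tested in the comparisons of EGF and of the lines.

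The arrays measured RNA of PC9, a lung adenocarcinoma cell line that is sensitive to gefitinib and carries an activating EGFR deletion. They also measured RNA of PC9GRM2, as the labels name it, a gefitinib-resistant line derived from PC9 by long culture with gefitinib. PC9GRM2 is a single derived line, so differences from PC9 belong to that line and cannot be assigned to resistance in general. Each line was starved of serum and then sampled 26 times between 0 and 24 h with no added agent, with 100 ng/ml EGF (the ligand of EGFR), with 0.5 µM gefitinib (an inhibitor of the EGFR kinase, given before 0 h), or with 0.5 µM gefitinib and 100 ng/ml EGF. There was 1 array per time point, so the arrays form 8 courses of 26.

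In the canonical Wnt pathway a complex built on AXIN1 and AXIN2 marks β-catenin for degradation. When a Wnt ligand engages a Frizzled receptor, Dishevelled blocks this complex, and β-catenin enters the nucleus, binds TCF/LEF factors and induces target genes. Several targets feed back on the signal: AXIN2 rebuilds the degradation complex, the NKD proteins bind Dishevelled, the ubiquitin ligases RNF43 and ZNRF3 remove Frizzled from the cell surface, and NOTUM inactivates secreted Wnt ligands. AXIN2 is widely used as a readout of β-catenin activity.

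Promoter sequence from RefSeq (GRCh38.p14) was at hand for 5 of the 10 genes, namely NKD2, RNF43, SP5, APCDD1 and TNFRSF19, with 7 entries. The 250 bases before each start were searched for CTTTGA, the core of the TCF/LEF motif, on both strands (TCAAAG is the same core on the other strand, and the 2 strings cannot match at the same place). SP5 held 3 matches, 1 on the strand of the gene and 2 on the other, and the other 6 entries held 0. Of 35116 promoter windows of this length, 11.2% held at least 1 match. The windows of SP5, at chr2:170715087-170715336 (plus strand), and of RNF43, at chr17:58417535-58417784 (minus strand), are shown 5′ to 3′ because they contrast a window with this core and one without it, with the matches in capitals. A match here is a description of the letters and was not tested as a binding site.
SP5: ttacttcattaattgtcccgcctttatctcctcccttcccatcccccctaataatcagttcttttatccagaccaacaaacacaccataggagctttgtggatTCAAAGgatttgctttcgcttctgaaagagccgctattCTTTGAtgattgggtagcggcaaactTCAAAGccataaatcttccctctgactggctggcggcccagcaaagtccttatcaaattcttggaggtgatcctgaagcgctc
RNF43: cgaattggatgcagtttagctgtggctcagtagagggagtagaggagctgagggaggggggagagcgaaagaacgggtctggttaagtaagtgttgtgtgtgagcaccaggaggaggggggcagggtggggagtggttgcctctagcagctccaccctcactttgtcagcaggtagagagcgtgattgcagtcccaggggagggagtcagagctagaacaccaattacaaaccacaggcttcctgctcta

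Levels are log2 normalized intensities of 1 probe per gene, the one that varied most across the arrays, and differences are between arrays at the same time point, so that a log2 difference of 1 is a doubling. A gene was tested when the scanner software called its probe well above background at 13 or more time points of any course, and 13261 genes were. Of the members, 7 passed and 3 (LGR5, APCDD1 and TNFRSF19) did not. NKD1 passed only through untreated PC9, at 13 of 26 arrays, and RNF43 only through courses with gefitinib, at 14 to 18 of 26, so that for these the filter favoured the groups in which they were high. Differences of RNF43 with gefitinib or between lines under gefitinib, and differences of NKD1 that use untreated PC9, are therefore given as values without a p. On every slide the 4 arrays of a line and time point took the same positions, so treatment and slide position cannot be told apart. The lines shared 0 scan days, so line and scan day cannot be told apart either. PC9 arrays had 183 to 1616 saturated features and PC9GRM2 arrays had 0, and 0 spots of the members were saturated on any array. Time points stood in for replicates and nothing says that they came from separate cultures, so that the p-values measure only the spread between time points. All 5 epithelial markers examined (EPCAM, CDH1, KRT8, KRT18 and KRT19) were well above background on every array. Of the lung lineage markers NAPSA was so on 207 arrays, SFTPC on 206, SFTPB on 89 and NKX2-1 on 13. Of 9 fibroblast, immune and endothelial markers with a probe, CD14 and VWF were well above background on every array and PECAM1 on 207. CD3E was so on 84 arrays, CDH5 on 34, DCN on 31, COL1A2 on 9, and PTPRC and PDGFRB on 1 each. Their part in the results was not tested.

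AXIN2, the scaffold protein of the β-catenin degradation complex, was the tested member with the largest variance over the arrays. In PC9 its level ran from 5.81 to 7.60 (median 6.55) without treatment and from 7.98 to 10.72 (median 9.64) with gefitinib, and these courses did not overlap. In PC9GRM2 it ran from 4.48 to 8.23 (median 6.67) without treatment and from 8.19 to 10.61 (median 9.83) with gefitinib, and here the courses overlapped slightly, since the untreated array at 2 h lay above the gefitinib array at 0.5 h. The gefitinib difference was 2.82 on the log2 scale in PC9 (7.05-fold, higher at 26 of 26 time points) and 2.96 in PC9GRM2 (7.80-fold, higher at 26 of 26). With EGF present it was 3.54 in PC9 (26 of 26) and 3.65 in PC9GRM2 (25 of 26). The second probe of AXIN2, which was well above background on 108 arrays against 205 for the first, had smaller differences of the same sign, 1.58 in PC9 (23 of 26) and 1.65 in PC9GRM2 (22 of 26). With normexp background correction the differences of the first AXIN2 probe were 1.57 in PC9 and 1.59 in PC9GRM2.

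The AXIN2 difference built up over the day, and both arms of the comparison moved. It was 0.86 in PC9 and 0.43 in PC9GRM2 at 0 h. It stayed above 1 from 2 h in PC9 and from 4 h in PC9GRM2, above 2 from 7 h and 6 h, and above 3 from 10 h and 8 h. Averaged over 0 to 7 h it was 1.36 ± 0.54 (SD, n = 9) in PC9 and 1.12 ± 0.92 (SD, n = 9) in PC9GRM2. Averaged over 16 to 24 h it was 3.82 ± 0.34 (SD, n = 9) and 4.43 ± 0.63 (SD, n = 9). With gefitinib the mean level in PC9 went from 8.56 over 0 to 7 h to 10.22 over 16 to 24 h, and in PC9GRM2 from 8.82 to 9.87. Without treatment it went from 7.20 to 6.40 in PC9 and from 7.70 to 5.44 in PC9GRM2, so that in PC9GRM2 the untreated level moved further, downwards, than the gefitinib level moved upwards.

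**Figure D1:**
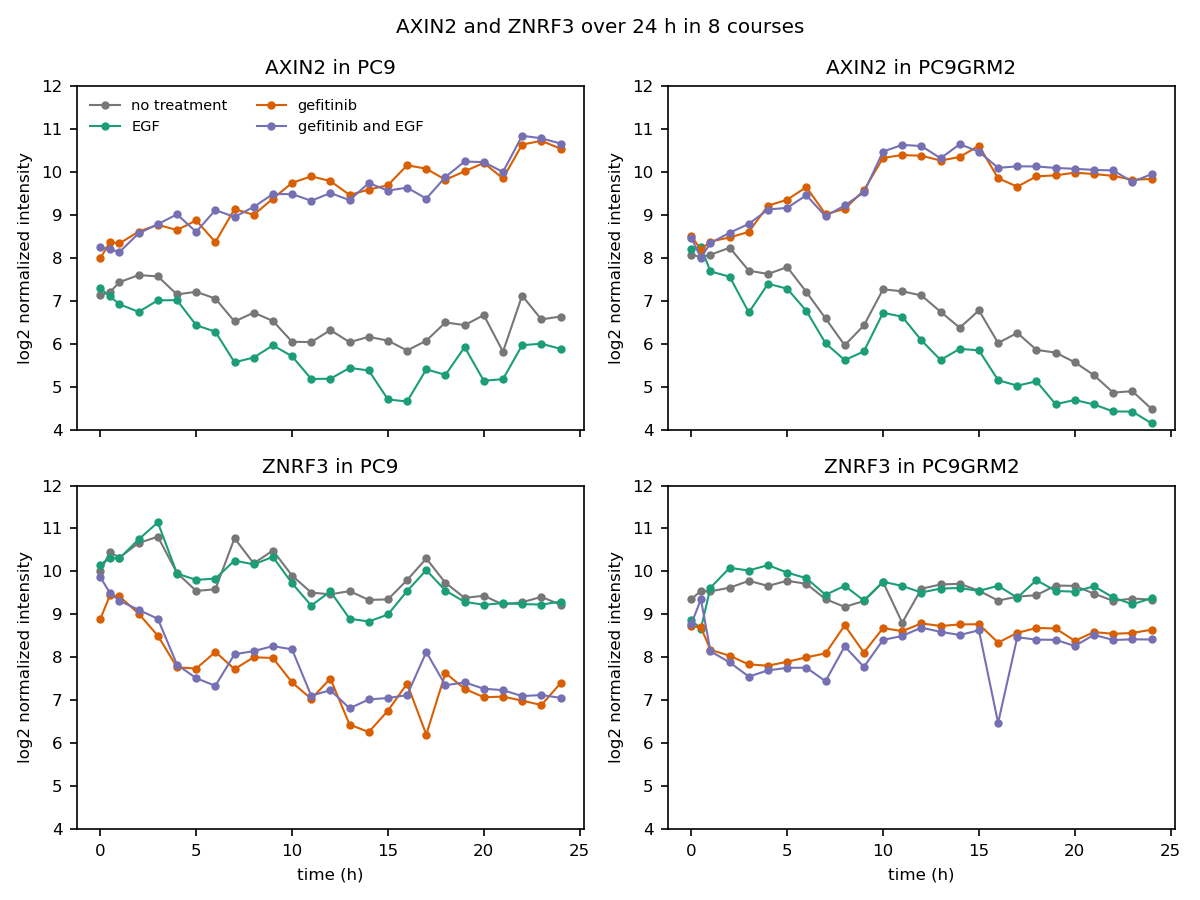
Log2 normalized intensity of AXIN2 (upper panels) and ZNRF3 (lower panels) against time in hours, with 1 array per point, for PC9 (left) and PC9GRM2 (right) under the 4 treatments. The courses with gefitinib lie above those without it for AXIN2, by 2.82 and 2.96 on average without EGF, and below them for ZNRF3, by 2.22 and 1.06.

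ZNRF3, a ubiquitin ligase that removes Frizzled receptors, went the other way. Its level in PC9 ran from 9.22 to 10.81 (median 9.66) without treatment and from 6.20 to 9.44 (median 7.46) with gefitinib. In PC9GRM2 it ran from 8.81 to 9.78 (median 9.54) without treatment and from 7.81 to 8.79 (median 8.58) with gefitinib. The PC9GRM2 courses did not overlap, and the PC9 courses overlapped only in the narrow stretch between 9.22 and 9.44. ZNRF3 fell by 2.22 ± 0.13 (SE) on the log2 scale in PC9, at 26 of 26 time points (adjusted p = 2.75e-14, limma with Benjamini-Hochberg adjustment over all genes tested, as throughout). It fell by 1.06 ± 0.09 (SE) in PC9GRM2, also at 26 of 26 (adjusted p = 2.27e-11). With EGF present it fell by 1.92 ± 0.10 (SE) in PC9 (adjusted p = 9.12e-16) and by 1.36 ± 0.15 (SE) in PC9GRM2 (adjusted p = 3.91e-09). The second ZNRF3 probe, like the first well above background on every array, was lower with gefitinib at 26 of 26 time points in each line, by -1.60 in PC9 and -1.10 in PC9GRM2. ZNRF3 and AXIN2 thus moved in opposite directions in all 4 gefitinib contrasts.

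The fall of ZNRF3 was early. At 0 h the difference was already -1.11 in PC9 and -0.63 in PC9GRM2, and over 0 to 7 h it averaged -1.72 ± 0.70 (SD, n = 9) and -1.45 ± 0.47 (SD, n = 9). Over 16 to 24 h it was -2.43 ± 0.66 (SD, n = 9) in PC9 and -0.89 ± 0.18 (SD, n = 9) in PC9GRM2. The late difference minus the early one was -0.71 in PC9, which did not pass the test (adjusted p = 0.0586). In PC9GRM2 it was 0.56 ± 0.16 (SE), so that the deficit shrank (adjusted p = 0.00718, and 0.0516 with the scan day as a random block). On the second probe the PC9GRM2 value was 0.58 and did not pass (adjusted p = 0.0736).

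RNF43, the partner ligase of ZNRF3, did not share its direction. Its probe was dim, well above background on 7 of 26 untreated and 14 of 26 gefitinib arrays of PC9GRM2, and on 9 and 10 of 26 in PC9. In PC9GRM2 its level ran from 1.81 to 5.48 (median 3.76) without treatment and from 3.48 to 5.52 (median 4.34) with gefitinib. The gefitinib course thus lay in the upper part of the untreated range and reached just above it. The RNF43 difference in PC9GRM2 was 0.66 ± 0.21 (SE; higher at 19 of 26 time points). With EGF present it was 0.88 ± 0.17 (SE) in PC9GRM2, at 24 of 26 time points, and 0.75 ± 0.24 (SE) in PC9, at 17 of 26. In PC9 without EGF it was 0.52 (14 of 25). A floor of 16 scanner units, which flattens dim values, took the PC9GRM2 difference to 0.21.

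NKD1 and NKD2 encode proteins that bind Dishevelled and dampen the signal. NKD1 was dim, well above background on 63 arrays. In PC9 its level ran from 3.17 to 5.07 (median 4.40) without treatment and from 2.11 to 5.25 (median 3.63) with gefitinib, a course with a wider spread that took in the whole untreated range. The NKD1 difference in PC9 was -0.67 ± 0.16 (SE; lower at 20 of 26 time points). With EGF present, on arrays through which it did not pass the filter, NKD1 fell in PC9 by 0.75 ± 0.14 (SE; lower at 23 of 26, adjusted p = 1.43e-05). In the first 13 time points alone that difference was -0.25 and was not called (adjusted p = 0.0819). In PC9GRM2 the difference was 0.33 without EGF (adjusted p = 0.0642) and 0.16 with EGF (adjusted p = 0.388). Under 75th percentile scaling of the arrays the PC9 difference without EGF was -0.33, and with a floor of 16 it was -0.17.

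NKD2 had 2 probes that disagreed. On the probe with the larger variance, well above background on every array, the level in PC9 ran from 8.51 to 13.20 (median 11.07) without treatment and from 9.20 to 14.14 (median 11.71) with gefitinib, with broad overlap. On it NKD2 rose in PC9 by 0.57 ± 0.18 (SE; higher at 18 of 24 time points, adjusted p = 0.00493), and no other gefitinib contrast passed (differences of 0.35 in PC9GRM2 and, with EGF, -0.08 in PC9 and 0.26 in PC9GRM2). On the other probe, well above background on 82 arrays, the PC9 difference was -0.23 (adjusted p = 0.0150) and the PC9GRM2 difference -0.61 (adjusted p = 0.000149). With EGF present that probe gave -0.13 (adjusted p = 0.0485) and -0.93 (adjusted p = 1.3e-07). The direction of NKD2 therefore depended on the probe and none is assigned.

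NOTUM, a secreted enzyme that strips the lipid from Wnt ligands, barely moved. Its level in PC9 ran from 5.91 to 7.41 (median 6.94) without treatment and from 5.62 to 7.40 (median 6.66) with gefitinib, and the courses overlapped almost fully. NOTUM fell in PC9 by 0.17 ± 0.07 (SE; lower at 19 of 26 time points, adjusted p = 0.0387), and under 75th percentile scaling the difference was 0.01 and not called. With the scan day as a random block its adjusted p was 0.127. In PC9GRM2 it was -0.03 with a 95% interval from -0.29 to 0.23, and with EGF present -0.07 in PC9 and -0.09 in PC9GRM2, none of which passed.

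SP5, a zinc finger transcription factor and the member whose promoter held the TCF/LEF core, was not called in any of the 4 gefitinib contrasts. On its probe with the largest variance the level in PC9 ran from 6.80 to 11.16 (median 8.98) without treatment and from 7.13 to 12.03 (median 8.93) with gefitinib. The difference was -0.01 in PC9 (95% interval -0.34 to 0.31, n = 24 time points, limma adjusted p = 0.939) and -0.06 in PC9GRM2 (95% interval -0.28 to 0.16). Its other 2 probes varied far less over the arrays (variance 0.143 and 0.154, against 1.30). On them the PC9 difference was 0.27 (adjusted p = 0.00268) and 0.18 (adjusted p = 0.0414), and the PC9GRM2 difference -0.15 and -0.17. With EGF present they gave 0.23 (adjusted p = 0.00349) and 0.19 (adjusted p = 0.00505) in PC9, so that a small PC9 rise of SP5 was called on those probes and not on the first.

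The remaining members did not pass the filter on the probe used. LGR5, a receptor for R-spondins, was well above background on 3 arrays and APCDD1, a membrane protein that inhibits Wnt signaling, on 1. TNFRSF19, a receptor of the tumour necrosis factor family, was well above background on 9 arrays by the probe with the larger variance. Its other probe, which belongs to another RefSeq transcript, was well above background on 187 arrays. On this probe, looked at after its values were seen, the level in PC9GRM2 ran from 4.28 to 6.72 (median 5.48) without treatment and from 4.78 to 7.44 (median 6.11) with gefitinib. The TNFRSF19 difference was 0.66 in PC9GRM2 (higher at 23 of 26 time points, adjusted p = 0.000504) and 0.42 in PC9 (19 of 26, adjusted p = 0.00874). With EGF present it was 0.78 in PC9 (26 of 26, adjusted p = 2.67e-07) and 0.64 in PC9GRM2 (18 of 26, adjusted p = 0.000788), and in PC9GRM2 the late difference exceeded the early one by 1.22 (adjusted p = 0.00311). TNFRSF19 on this probe thus had the sign of AXIN2 in all 4 contrasts, with differences below 1.

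**Figure D2:**
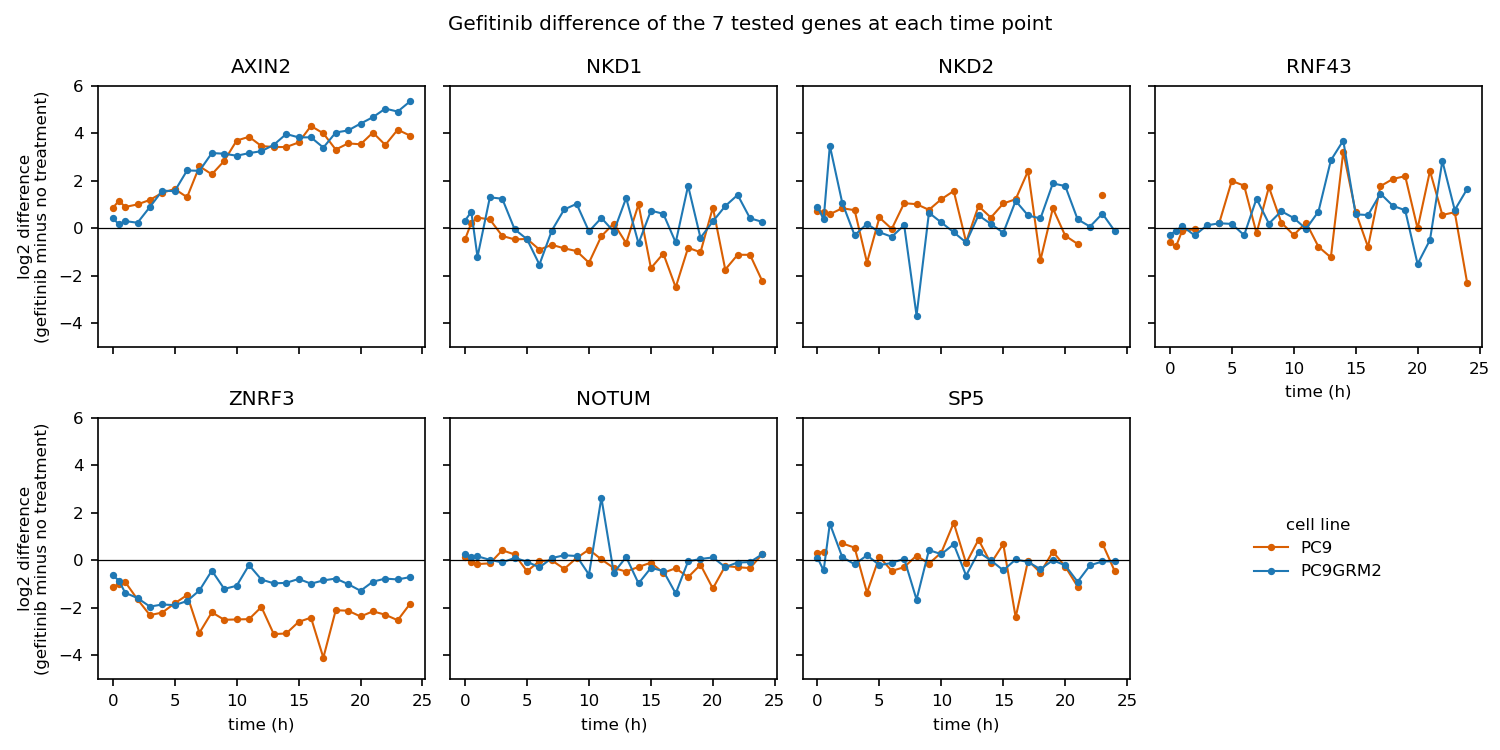
Log2 difference between the gefitinib and the untreated array at each time point, in hours, for the 7 genes that passed the filter, in PC9 (orange) and PC9GRM2 (blue), on the probe with the largest variance. AXIN2 lies between 3.32 and 5.35 from 16 h on, ZNRF3 stays below 0 throughout, and the other 5 cross 0 repeatedly.

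Over the 6 members tested besides AXIN2, gefitinib against no treatment gave 1 higher and 3 lower in PC9, where 34.8% of all genes were called higher and 37.4% lower (72.2% in all). In PC9GRM2 it gave 1 higher and 1 lower, where 32.5% of all genes were called higher and 34% lower (66.5% in all). With EGF present it gave 1 higher and 2 lower in PC9 (background 38.9% higher and 40% lower, 78.9% in all) and 1 higher and 1 lower in PC9GRM2 (background 36.5% and 38%, 74.4% in all). RNF43 and NKD1 count among these although they passed the filter only in courses in which they were high. The 1 higher in PC9 without EGF was NKD2, and on its other probe the count would be 0 higher and 4 lower. The median difference over the 6 was -0.09 in PC9 and 0.15 in PC9GRM2, against -0.03 and -0.01 over all 13261 genes, and the median absolute difference over all genes was 0.44 and 0.32. No tested member was called higher with gefitinib in both lines with and without EGF, although the RNF43 difference was above 0 in each of these 4 contrasts. ZNRF3 was called lower in all 4, as 26.5% of all genes were (25.9% were called higher in all 4). TNFRSF19 is outside this count because its probe with the larger variance did not pass the filter. On its other, brighter probe it was called higher in all 4 contrasts, with differences below 1. Without EGF 28.8% of all genes fell in both lines and 27.2% rose in both. In these bulk samples fewer cells of a kind and less RNA per cell cannot be told apart.

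**Figure D3:**
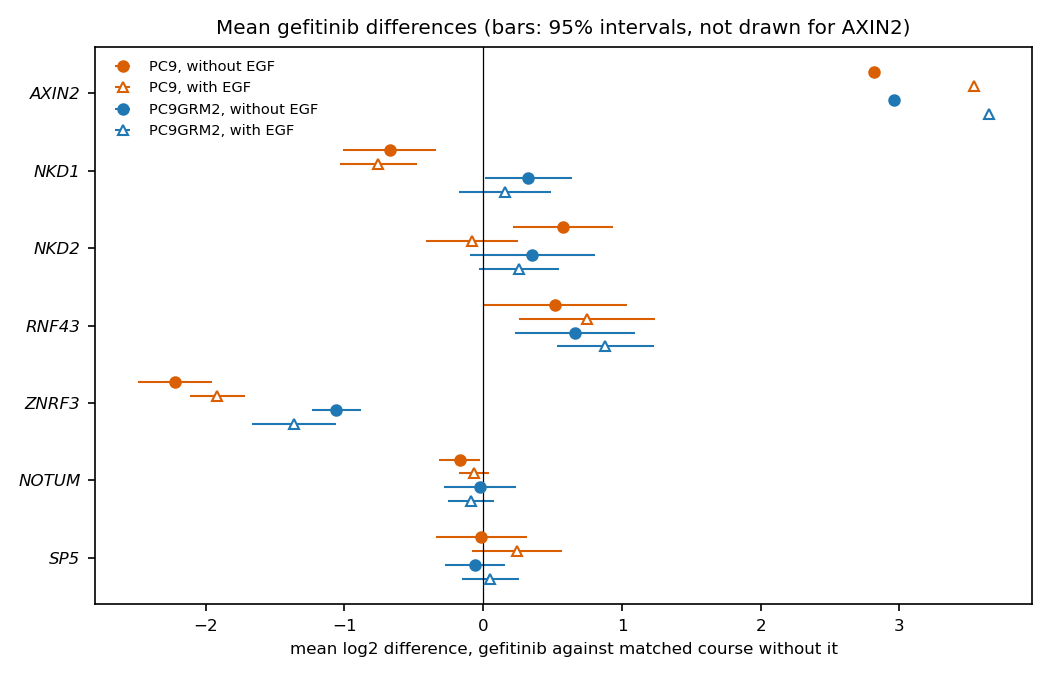
Mean log2 difference between courses with gefitinib and matched courses without it for the 7 genes that passed the filter, in PC9 (orange) and PC9GRM2 (blue), without EGF (filled circles) and with EGF (open triangles), with 95% intervals over 21 to 26 time points except for AXIN2, whose rise chose the group. AXIN2 stands between 2.82 and 3.65, ZNRF3 between -2.22 and -1.06, and the other genes between -0.75 and 0.88.

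With EGF and no drug AXIN2 was the 1 member called of the 7 tested, in either line. AXIN2 ran from 4.65 to 7.29 (median 5.79) with EGF in PC9 and from 4.15 to 8.25 (median 5.86) in PC9GRM2, ranges that overlapped those of the untreated courses. It fell by 0.75 ± 0.08 (SE) in PC9, at 25 of 26 time points (adjusted p = 3.28e-08), and by 0.61 ± 0.07 (SE) in PC9GRM2, at 24 of 26 (adjusted p = 2.46e-06, and 0.922 when the arrays were not paired by time point). At 0 h the differences were 0.16 and 0.13. The background of EGF calls was 25.6% of genes in PC9 (11.3% higher and 14.3% lower) and 9.07% in PC9GRM2 (4.16% higher and 4.92% lower), and 3.37% of genes were called lower in both lines. AXIN2's other, dimmer probe gave -0.31 (adjusted p = 0.431) and -0.10 (adjusted p = 0.835), neither called. The other 6 members were not called, with differences from -0.19 for SP5 in PC9 to 0.12 for NKD1 in PC9GRM2. ZNRF3 was at -0.11 (95% interval -0.21 to -0.01, adjusted p = 0.100) in PC9 and 0.08 (95% interval -0.06 to 0.21) in PC9GRM2.

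When gefitinib was already present, adding EGF moved AXIN2 by -0.03 in PC9 (95% interval -0.15 to 0.09, adjusted p = 0.860) and by 0.07 in PC9GRM2 (95% interval 0.00 to 0.14, adjusted p = 0.245). This comparison was chosen after its values were seen. By limma 0 of the 7 tested members were called in either line (1 in PC9 and 2 in PC9GRM2 had an unadjusted p under 0.05, and the methods' t-test with Benjamini-Hochberg adjustment also gave 0), where 0.0452% of all genes were called in PC9 and 3.11% in PC9GRM2 (0.973% higher and 2.13% lower). The 6 genes called in PC9 were all higher, against 57.1% of the calls under 75th percentile scaling. Whether the effect of EGF on AXIN2 differed with and without the drug was not tested.

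Over the whole course no line difference of AXIN2 passed the test under any treatment. PC9GRM2 minus PC9 was -0.01 without treatment (95% interval -0.38 to 0.36), 0.14 with gefitinib (-0.08 to 0.35), 0.13 with EGF (-0.22 to 0.47) and 0.24 with both (0.01 to 0.47), with adjusted p-values of 0.969, 0.260, 0.520 and 0.0643. Over the 26 time points the untreated difference ran from -2.26 to 1.22, and the sign changed within the course. In the first 13 time points AXIN2 was higher in PC9GRM2 by 0.46 without treatment (adjusted p = 0.0147), by 0.60 with EGF (adjusted p = 0.00131) and by 0.29 with gefitinib (adjusted p = 0.0478). In the last 13 these were -0.48, -0.35 and -0.01, none of them called. Ordered by mean level, the 4 courses without gefitinib lay between 5.88 and 6.63 and the 4 with it between 9.42 and 9.66. Of the 7 steps between neighbours in that order, the step between these sets, 2.79, was the one that exceeded the larger SD of the neighbours.

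Line differences of the other members were below 1 in size, apart from those of NKD2 and SP5, which depended on the probe. On the brighter probe of TNFRSF19, which is outside the counts below, the difference was 0.56 without treatment, 0.80 with gefitinib, 0.54 with EGF and 0.41 with both. Of the 7 tested, 5 were lower and 0 higher in PC9GRM2 without treatment (background 37.8% lower, 30.3% higher, 68.1% in all). With gefitinib 2 were higher and 2 lower (background 29.9% and 34.8%, 64.7% in all). With EGF 0 were higher and 4 lower (background 32.1% and 37.7%, 69.8% in all), and with both agents 1 was higher and 3 lower (background 30.6% and 37.1%, 67.7% in all). NKD2 and SP5 were among the lower ones under all 4 treatments. The sign of NKD2 turned with the probe, and that of SP5 did so in the courses without gefitinib. Without NKD2 and SP5 the lower ones were 3, 0, 2 and 1 in that order. The 3 without treatment still include NKD1, which passed the filter only through untreated PC9. RNF43 counts among the higher ones with gefitinib and with both agents, although it passed only through courses with gefitinib. The NKD1 difference was -0.75 ± 0.15 (SE) without treatment. With EGF NKD1 was lower in PC9GRM2 by -0.61 ± 0.15 (SE, adjusted p = 0.000978), and with a floor of 16, 3 h between time points or the first 13 time points this was not called (adjusted p = 0.0752, 0.0588 and 0.249). NOTUM was lower by -0.38 without treatment (adjusted p = 0.0222), -0.35 with EGF (adjusted p = 0.0108) and -0.38 with both agents (adjusted p = 0.00353). The RNF43 difference was 0.61 with gefitinib and 0.60 with both agents. With the scan day as a random block the NOTUM differences gave adjusted p-values of 0.142, 0.126 and 0.0814, none of them called. ZNRF3 was lower in PC9GRM2 by -0.33 without treatment (adjusted p = 0.00773) and higher by 0.83 with gefitinib (adjusted p = 0.000592), and on its second probe -0.32 (adjusted p = 0.217) and 0.18 (adjusted p = 0.487), not called.

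For NKD2 the sign of the line difference turned with the probe, and for SP5 it did so in the courses without gefitinib. On the probe with the larger variance NKD2 was lower in PC9GRM2 by -1.59, -1.74, -1.69 and -1.31 under no treatment, gefitinib, EGF and both, each of them called. On its other probe it was higher by 2.59, 2.21, 2.72 and 1.92, at 26 of 26 time points each time. That probe was well above background on 2 to 4 of 26 arrays of each PC9 course and on 12 to 22 of 26 of each PC9GRM2 course, and both probes carry the same RefSeq accession. SP5 was lower by -1.23, -1.34, -1.12 and -1.19 on its probe with the largest variance and differed by 0.18, -0.25, 0.15 and -0.22 on the second and by 0.25, -0.10, 0.22 and -0.16 on the third. Values of the first SP5 probe were removed as outliers on 8 arrays and those of the first NKD2 probe on 6.

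**Figure D4:**
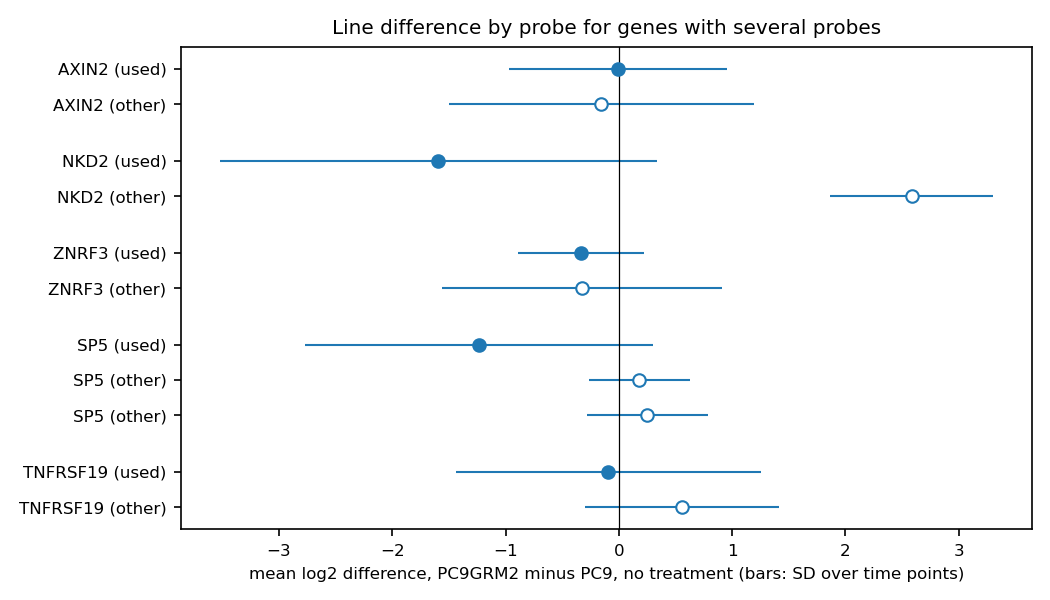
Mean log2 difference between PC9GRM2 and PC9 without treatment for every probe of the 5 members with several probes, with bars of 1 SD over the time points, filled circles for the probe used and open circles for the others. The NKD2 probes lie on opposite sides of 0, at -1.59 and 2.59, and the first SP5 probe at -1.23 stands apart from the other 2 at 0.18 and 0.25.

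The size of the gefitinib difference was compared between the lines at each time point. For AXIN2 the line difference of the gefitinib effect was 0.15 without EGF and 0.11 with it, given without a test. ZNRF3 fell less in PC9GRM2, by 1.16 ± 0.17 (SE) without EGF (at 23 of 26 time points, adjusted p = 3.79e-06) and by 0.55 ± 0.12 (SE) with EGF (21 of 26, adjusted p = 0.000477). On the other ZNRF3 probe these were 0.50 (adjusted p = 0.0197) and 0.68 (adjusted p = 0.000699). In the first 13 time points the ZNRF3 values were 0.70 (adjusted p = 0.0670) and 0.23 (adjusted p = 0.317), not called. The NKD1 value was 1.00 ± 0.23 (SE) without EGF (20 of 26). With EGF NKD1 differed by 0.91 ± 0.23 (SE; 20 of 26, adjusted p = 0.00207). In the first 13 time points that value was 0.11 and was not called (adjusted p = 0.816). The background of this comparison was 34.1% of genes without EGF (17.5% higher and 16.6% lower) and 48.6% with it (22.8% and 25.8%), and 2 of the 6 members tested were called in each, both higher. The count without EGF includes NKD1, which passed the filter only through untreated PC9. With a floor of 16 the NKD1 values were 0.24 and 0.19, and the second was not called (adjusted p = 0.198). The 2 other SP5 probes differed by -0.43 (adjusted p = 0.00100) and -0.35 (adjusted p = 0.00570) without EGF, while the first gave -0.11 and was not called.

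Growth or loss of the gefitinib difference over the day was called for 1 of 6 members in each line (background 48.4% in PC9, 24.1% higher and 24.3% lower, and 49.4% in PC9GRM2, 23.8% higher and 25.6% lower). NKD1 in PC9 went from -0.24 ± 0.48 (SD, n = 9) over 0 to 7 h to -1.19 ± 0.97 (SD, n = 9) over 16 to 24 h. This change of -0.94 ± 0.34 (SE) was the PC9 call. It uses untreated PC9, the only course through which NKD1 passed the filter. The change is therefore given as a value without a p, and the PC9 count rests on it alone. In PC9GRM2 it was the ZNRF3 change of 0.56 given above. AXIN2's own change, untested, was 2.46 in PC9 and 3.31 in PC9GRM2. On its other probe it was 1.22 and 0.83, and with normexp correction it was 1.49 in PC9GRM2.

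The genes whose level ran most like that of AXIN2 over all arrays, after each gene was centred within each line, were SLC40A1 (Pearson r = 0.96), MYLIP (0.95), LMO2 (0.95), CSF1R (0.95) and HDDC3 (0.94). These points share slides and time courses, so the values are a description. Each of the 5 was higher with gefitinib in both lines, from 1.06 for HDDC3 in PC9GRM2 to 3.72 for CSF1R in both. They were picked for likeness to AXIN2, which was itself higher with gefitinib. Their rise therefore follows from the choice and is not a separate result. The tested members of the group, on the probes used, stood far from them: RNF43 had r = 0.43, NKD2 0.00, NKD1 -0.10, SP5 -0.11, NOTUM -0.18 and ZNRF3 -0.72. RNF43 and NKD1 were dim, well above background on 86 and 63 arrays. LGR5, APCDD1 and TNFRSF19 were not among the tested genes, so no r is given for them or for the brighter TNFRSF19 probe. Of the other 13260 tested genes 24.8% had a higher r than RNF43 and 92.9% a higher r than ZNRF3.

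In the rest of the pathway, each list with several tested genes held genes called higher and genes called lower with gefitinib. The lists are not separate, since LEF1, TCF7 and DKK1 are other β-catenin targets that also stand in a second list. Over all genes 34.8% were called higher and 37.4% lower in PC9, and 32.5% and 34% in PC9GRM2. Of 14 other β-catenin targets 11 were tested, and 3 were higher and 6 lower in PC9 and 4 higher and 6 lower in PC9GRM2, with medians of -0.30 and -0.22. With EGF present 2 were higher and 6 lower in PC9 (background 38.9% and 40%). In PC9GRM2 with EGF 2 were higher and 7 lower (background 36.5% and 38%). The medians with EGF were -0.29 and -0.38. Among these targets EPHB3, an ephrin receptor, rose without EGF by 1.97 in PC9 (adjusted p = 1.07e-09) and 1.19 in PC9GRM2 (adjusted p = 8.05e-08). BMP4, a secreted growth factor, fell by 1.88 (adjusted p = 1.92e-13) and by 0.99 (adjusted p = 3.52e-14). CCND1, which encodes cyclin D1, fell by 1.80 (adjusted p = 2.86e-14) and 0.77 (adjusted p = 8.36e-06). CTNNB1, which encodes β-catenin, fell by 0.41 ± 0.09 (SE) in PC9 (adjusted p = 0.000319) and was at -0.02 in PC9GRM2 (adjusted p = 0.836), and it was higher in PC9GRM2 than in PC9 by 0.95 without treatment (adjusted p = 0.000322) and by 1.34 with gefitinib.

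For each list below, the background over all genes was 34.8% higher and 37.4% lower in PC9, and 32.5% and 34% in PC9GRM2. Of 10 genes of the β-catenin and TCF/LEF complex 8 were tested, with 2 higher and 4 lower in PC9 and 2 higher and 1 lower in PC9GRM2. TCF7L1, a TCF factor that often represses targets, rose by 2.93 and 1.57 in the lines, and TCF7 was at -0.30 and -0.22. Of the destruction complex 9 of 10 were tested, with 2 higher and 3 lower in PC9 and 3 higher and 2 lower in PC9GRM2. There GSK3B, a kinase of the complex, was at -1.01 and -0.50 and AXIN1, the constitutive relative of AXIN2, at -0.75 and -0.40, while the ubiquitin ligase subunit BTRC rose by 0.68 and 0.27. Of the Wnt receptors and Dishevelled genes 13 of 15 were tested, with 4 higher and 4 lower in PC9 and 5 higher and 4 lower in PC9GRM2. Among these receptors FZD2 rose by 0.86 and 0.83, whereas FZD9 was at -0.83 and -0.73 and FZD4 at -0.79 and -0.41. Of the secreted Wnt antagonists 8 of 14 were tested, with 2 higher and 2 lower in PC9 and 1 higher and 3 lower in PC9GRM2. SFRP1, which binds Wnt ligands, was at -0.74 and -0.46, and DKK1, which blocks the coreceptor LRP6, rose by 0.34 and 0.30. Of the R-spondins and their receptors LGR4 alone was tested, at -0.08 and -0.09 and not called. By contrast all 10 genes listed as induced by ERK signaling were lower in PC9 and 9 in PC9GRM2, with medians of -3.78 and -1.21. Among them DUSP6, a phosphatase of ERK, was at -6.81 and -2.16, the inhibitor SPRY4 was lower in each line (-1.61 in PC9GRM2), and the transcription factor ETV5 at -4.83 and -1.11. Apart from CTNNB1 and LGR4, the genes named from these lists were named because they were called in the same direction in both lines.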

How the data were processed

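RNA of 2 cell lines was measured with 1-colour Agilent arrays, 1 per time point. The authors deposited the scanner output of each array, whose intensities were background-subtracted by Feature Extraction (version 10.5.1.1 per the file headers) and not normalized between arrays, and a table of quantile-normalized intensities. Here intensities were quantile-normalized over all arrays, floored at 1 and log2-transformed. Spots marked as outliers were left out, 0.0793% of tested values. Of 41000 probes 24794 matched a RefSeq symbol by accession, which gave 16961 genes. For a gene with several probes the one of largest variance was used, and 13261 genes with a probe well above background at 13 or more of the 26 time points of a course were tested.

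Differences between arrays at matched time points were tested with limma 3.58.1 in R 4.3.3, two-sided, with Benjamini-Hochberg adjustment over all genes tested and a threshold of 0.05. The pairing comes from the slide, which held the 4 arrays of a line and time point. Deviations of paired arrays correlated above 0.1 in all 26 pairs for EGF against no treatment in each line, and in 21 and 25 of 26 for gefitinib against no treatment in PC9 and PC9GRM2. Between the lines they did so in 9 to 19 of 26, so that there the pairing is by time alone. The test was checked on simulated data in which the time points were independent. In the real differences neighbouring time points were correlated, with a median over genes of 0.29 for gefitinib in PC9 and 0.37 between the untreated lines. The check therefore cannot show how the p-values behave under such correlation. The alternatives were another scaling, background correction, floor, filter, probe, test, pairing, time window, outlier rule and block. The normexp correction used median spot signals in place of mean signals. The members and gene lists were chosen with earlier results of these data known. Named besides the members were CTNNB1, up to 3 genes of each list with the largest gefitinib difference called in the same direction in both lines, and the 5 genes most like AXIN2. Promoter windows came from RefSeq GRCh38.p14, which is not the build of the array design. The number of arrays limits the precision.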

Additional observations from a re-analysis of the deposited data

Results flagged for a closer look

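The effect of gefitinib differed between the lines for ZNRF3, and with EGF present for NKD1, by a test of the difference itself (limma with Benjamini-Hochberg adjustment, PC9GRM2 minus PC9). For ZNRF3 the difference was 1.16 ± 0.17 (SE, 23 of 26 time points, adjusted p = 3.79e-06) without EGF and 0.55 ± 0.12 (SE, 21 of 26, adjusted p = 0.000477) with it. In the first 13 time points it was 0.70 (adjusted p = 0.0670) and 0.23 (adjusted p = 0.317), not called. For NKD1 it was 1.00 ± 0.23 (SE, 20 of 26) without EGF, given without a p, and 0.91 ± 0.23 (SE, 20 of 26, adjusted p = 0.00207) with it. NKD1 passed the filter on dim genes only through untreated PC9, which enters the first of these values. In the first 13 time points the NKD1 values were 0.63 and 0.11 (adjusted p = 0.816 for the latter). With a floor of 16 they were 0.24 and 0.19 (adjusted p = 0.198 for the latter). With normexp correction they were 0.056 and 0.045 (adjusted p = 0.0852 for the latter). None of these values was called. The lines were scanned on different days and only PC9 arrays held saturated features, so line and scan day cannot be told apart.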

How the results depend on the processing

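Of the counts of called members recomputed under the alternatives, 207 stayed within 1.5 times the reported count and 63 moved. All 16 counts stayed under 75th percentile scaling, the deposited normalized table, no filter on dim genes and the methods' paired t-test. Gefitinib against no treatment in PC9 (4 called) gave 2 with normexp correction, with no replicate block and when time points were 3 h apart, and 1 when the difference had to reach 1. In PC9GRM2 (2 called) it gave 1 with a floor of 16, with all 26 arrays required above background, 3 h apart, in the first 13 time points and with a difference of at least 1, and 4 in the last 13. With EGF present, PC9 (3 called) gave 5 with the brightest probe or the mean of all probes and 1 with all 26 arrays, the first 13 time points or a difference of at least 1. PC9GRM2 (2 called) gave 4 with the mean of all probes, 5 in the last 13 and 1 with all 26 arrays or a difference of at least 1. The AXIN2 call for EGF (1 in each line) became 0 with a difference of at least 1 in each line, and in PC9GRM2 also 0 with no replicate block or 3 h apart. Between the untreated lines (5 called) there were 3 called 3 h apart, in the last 13 and with variance inflated for autocorrelation, 2 with a difference of at least 1, and 0 one-sided for higher in PC9GRM2. With gefitinib (4 called) there were 2 under each of the last pair of settings. With EGF (4 called) there were 0 called 3 h apart and one-sided, and 2 with inflated variance or a difference of at least 1. With both agents (4 called) there were 0 called 3 h apart, with inflated variance or with the scan day as a random block, 2 in the first 13 or with a difference of at least 1, and 1 one-sided. Adding EGF to gefitinib in PC9GRM2 (0 called) gave 1 with outlying points replaced by a spline. The line difference of the gefitinib effect (2 called) gave 1 with normexp, a floor of 16, all 26 arrays or a difference of at least 1, and 0 in the first 13. With EGF (2 called) it gave 1 with normexp, all 26 arrays, no replicate block or 3 h apart, and 0 in the first 13 or with a difference of at least 1. Late minus early in PC9 (1 called) gave 0 with normexp, a floor of 16, all 26 arrays, no replicate block, the scan day block or a difference of at least 1, and 2 with the mean of all probes or the spline. In PC9GRM2 (1 called) it gave 2 with the mean of all probes and 0 with the scan day block or a difference of at least 1. The cause was not tested, except that time points 3 h apart and the time windows use fewer arrays.

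Among single members 42 recomputed values reversed, 130 lost a call, 60 gained one and 1793 stayed. Another 9, all of them AXIN2 gefitinib differences or their change over time, moved to between 0.83 and 2.07. The differences were judged against their SD over the time points, and the changes over time against a fixed size. For NKD2 the other probe gave -0.23 and -0.61 for gefitinib in PC9 and PC9GRM2, -0.93 for gefitinib with EGF in PC9GRM2, 2.59, 2.21, 2.72 and 1.92 between the lines (none, gefitinib, EGF, both) and -0.80 for the line difference of the effect with EGF. The mean of all probes gave -0.34 for NKD2 with EGF in PC9GRM2 and 0.82, 0.40, 0.82 and 0.46 between the lines. SP5 with gefitinib in PC9 gave 0.27 on the brightest probe, 0.14 as the mean of all and 0.18 on the third. The third SP5 probe gave -0.19 with EGF in PC9GRM2 and 0.37 for late minus early in PC9GRM2. Between the lines SP5 gave 0.18 and 0.25 untreated and 0.15 and 0.22 with EGF. NOTUM with gefitinib in PC9 gave 0.0076 under 75th percentile scaling and 0.019 in the first 13. TNFRSF19, whose main probe was not well above background, gave 0.78 on the brighter probe and 0.33 as the mean for gefitinib with EGF in PC9, and 0.56, 0.80 and 0.54 between the lines (none, gefitinib, EGF). AXIN2 between the untreated lines gave 0.46 in the first 13, and ZNRF3 0.0076 in the last 13. The AXIN2 line difference of the gefitinib effect gave -0.18 in the first 13, and with EGF -0.32 in the first 13, -0.038 as the mean of all probes and -0.19 on its other probe. The fall of ZNRF3 with gefitinib was called in each line, with and without EGF, under every alternative run.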
